A study of Homo sapiens with 3 samples.

Results

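The genes described here encode 9 enzymes that make serine and pass its carbon on to folate, out of 59719 gene names in the expression table. They were taken by symbol and fall into 3 arms of 3 genes. PHGDH, PSAT1 and PSPH make serine from a glycolytic intermediate. SHMT1, MTHFD1 and TYMS are the cytosolic folate enzymes, and SHMT2, MTHFD1L and MTHFD2 are the mitochondrial ones. All 9 were found once, and all 9 passed the minimum of a mean of 1 TPM, a transcript level scaled for transcript length and library total, so that genes can be compared. In all 13637 names passed, and these are called the tested genes.

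RNA was sequenced from 3 libraries of PC3 cells, an androgen-independent line grown from a bone metastasis of prostate cancer. One library came from control cells (shCON), 1 from cells with shUSP16#1 and 1 from cells with shUSP16#2, 2 hairpins against the deubiquitinase USP16. The shCON column of the expression table is headed RFP. The study calls shCON a vector control in its xenograft work and lists no control hairpin sequence. Hairpins were cloned into pLKO.1, and stable lines were selected in puromycin, without a statement of whether they were pools or clones. With 1 library per condition, no difference has a replicate check, no p-value is given, and the only internal comparison is between the hairpins, which share the shCON library. The depth behind the TPM values is unknown, so no interval is given. Where 3 TPM values are listed for a gene, they stand in the order shCON, shUSP16#1, shUSP16#2.

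Serine synthesis starts from 3-phosphoglycerate, which PHGDH oxidizes, PSAT1 transaminates and PSPH dephosphorylates. SHMT enzymes then move a carbon from serine to tetrahydrofolate, leaving glycine. In mitochondria MTHFD2 and MTHFD1L carry this unit on to formate, which leaves for the cytosol, where MTHFD1 returns it to folate for purines, methionine and thymidylate. TYMS uses methylene-tetrahydrofolate to make thymidylate, the DNA-specific nucleotide. In cancer cells several of these genes are known as targets of ATF4, the factor of the amino acid response, and of c-Myc, and TYMS is known as an E2F target that is high in S phase.

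The antisense strand of each hairpin is shown because it decides which messages can be bound. Capitals mark its seed (bases 2 to 8 counted from the 5′ end of the listed strand).
shUSP16#1: aTAAACATgatttcttctggc
shUSP16#2: aAATCTTGtggaatatcaccg
Among the GENCODE release 29 transcripts with the longest coding sequence, the reverse complement of all 21 bases was found in USP16 alone for both hairpins. The reverse complement of the shUSP16#1 seed, ATGTTTA, was found in the 3′ untranslated region of 19.6% of 11330 tested protein-coding genes, and there in 4 members, with 2 matches in PSAT1 and 1 each in MTHFD1, MTHFD1L and MTHFD2. The reverse complement of the shUSP16#2 seed, CAAGATT, was found in 10.1% of these genes and in 0 of the 9 members. Such matches describe letters only and show no binding.

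Promoter sequence is shown for the 4 members that stood furthest from shCON and for PSAT1, the second step of serine synthesis, which is the contrast to PHGDH. Each run holds the 250 bases before the RefSeq start on GRCh38.p14, from chr1:119711684-119711933 for PHGDH, chr9:78296875-78297124 for PSAT1, chr14:64388103-64388352 for MTHFD1, chr18:657403-657652 for TYMS and chr2:74198365-74198614 for MTHFD2, all on the forward strand. Capitals mark matches to motifs searched on both strands. These were CCAAT, the GC box GGGCGG, the E-box CACGTG to which c-Myc can bind, the amino acid response element TGATGNAA, the E2F sites TTTGGCGC and TTTCCCGC, and the TATA box TATAAA.
PHGDH: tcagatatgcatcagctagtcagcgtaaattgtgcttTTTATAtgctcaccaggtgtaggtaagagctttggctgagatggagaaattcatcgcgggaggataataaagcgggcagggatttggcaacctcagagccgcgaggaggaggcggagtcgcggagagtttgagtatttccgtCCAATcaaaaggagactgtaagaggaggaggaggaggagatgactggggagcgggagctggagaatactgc
PSAT1: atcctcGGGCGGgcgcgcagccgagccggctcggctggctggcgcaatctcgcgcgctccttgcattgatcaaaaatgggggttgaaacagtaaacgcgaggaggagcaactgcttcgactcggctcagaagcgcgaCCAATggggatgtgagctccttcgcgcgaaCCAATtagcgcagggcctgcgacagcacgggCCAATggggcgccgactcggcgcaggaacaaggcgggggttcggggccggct
MTHFD1: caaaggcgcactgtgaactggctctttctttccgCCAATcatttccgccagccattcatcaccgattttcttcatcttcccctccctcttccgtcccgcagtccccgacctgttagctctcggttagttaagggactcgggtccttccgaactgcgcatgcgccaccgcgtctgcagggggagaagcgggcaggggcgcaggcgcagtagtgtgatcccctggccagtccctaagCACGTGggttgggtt
TYMS: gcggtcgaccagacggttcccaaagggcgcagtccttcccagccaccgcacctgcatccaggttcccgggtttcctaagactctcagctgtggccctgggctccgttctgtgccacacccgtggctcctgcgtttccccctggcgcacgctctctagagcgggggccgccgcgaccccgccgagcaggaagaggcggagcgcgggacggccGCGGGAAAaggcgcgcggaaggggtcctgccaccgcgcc
MTHFD2: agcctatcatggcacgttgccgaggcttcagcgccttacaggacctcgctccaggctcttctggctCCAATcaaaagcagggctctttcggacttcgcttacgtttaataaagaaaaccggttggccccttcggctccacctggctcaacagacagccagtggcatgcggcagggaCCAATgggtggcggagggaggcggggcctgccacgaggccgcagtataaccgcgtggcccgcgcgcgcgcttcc
RefSeq windows of 300 bases, with 50 past the start, were matched for 7 of the 9 members. PSPH and SHMT2 were not matched. A member counted as holding a motif if any of its windows did, and MTHFD1L had several. The shares are per window, so the units differ. A CCAAT box was held by 6 of these 7 members and by 34.6% of 35116 windows, and TYMS was the member without one. PSAT1 held 3 CCAAT boxes, at -113, -83 and -52, counted to the first base of the match with the start base as 0, and PHGDH held 1, at -71. The E-box was held by MTHFD1, at -15, and by MTHFD1L, against 7.26% of all windows. An E2F letter string was found in TYMS alone, at -39 on the reverse strand, where TTTCCCGC was held by 1.63% of all windows. The amino acid response element was found in MTHFD1L alone, as TGATGCAA, against 3.62% of all windows. The GC box was held by 3 members and 45% of windows. The letters of the TATA box were found in PHGDH alone, on the reverse strand at -213, against 11.5% of windows. Such a match does not show a working TATA box.

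USP16, the target of the hairpins, was at 19.9, 3.5 and 1.08 TPM. The epithelial keratins KRT8, KRT18 and KRT19 were at 507 TPM or more in each library, while the prostate marker KLK3, which PC3 cells are known to lack, was listed at 0 in all 3. Of markers of blood, endothelial, stromal and liver cells, COL1A1 (4.19, 10.7 and 4.78 TPM) and PECAM1 (0.14, 0.72 and 1.28 TPM) differed between libraries, and PTPRC, CD3E, VWF, DCN and ALB were at 0.14 TPM or less. A change is log2(TPM + 1) in a hairpin library minus log2(TPM + 1) in shCON. The shUSP16#2 library differed in make-up. Protein-coding genes held 93.2% of summed TPM in shCON, 95.2% in shUSP16#1 and 88.7% in shUSP16#2. In the same order 13763, 13701 and 12984 genes reached 1 TPM. The tested genes had a median change of -0.17 with shUSP16#1 and -0.37 with shUSP16#2, and changes counted from that median are called centred. Transcripts poor in GC were lower in both hairpin libraries, with a Spearman correlation between change and GC content of 0.53 (shUSP16#1) and 0.63 (shUSP16#2) over genes, which are not independent replicates. The part that this trend and the general shift played in the changes of single members was not tested. Each list is also counted after centring and after removal of the GC trend. That removal keeps the general shift, so the tested genes still had medians of -0.18 and -0.37.

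In shCON the mitochondrial SHMT2, at 267 TPM, was the highest of the 9 and TYMS was next, at 243 TPM. MTHFD2 at 97.7, PHGDH at 79.95 and MTHFD1 at 78.95 TPM formed the middle, ahead of PSPH at 48.9, MTHFD1L at 37.7, PSAT1 at 31.0 and SHMT1 at 24.9 TPM. Without replicates it cannot be said which neighbours in this order differ. SHMT2 was also the highest under both hairpins, and PHGDH moved from the fourth to the second place under both, ahead of TYMS. SHMT1 and PSAT1 were among the lowest in all 3 libraries, and under shUSP16#2 MTHFD1 was level with them. All 9 were well expressed, between percentiles 66.7 and 96.1 of the shCON levels of the tested genes.

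**Figure D1:**
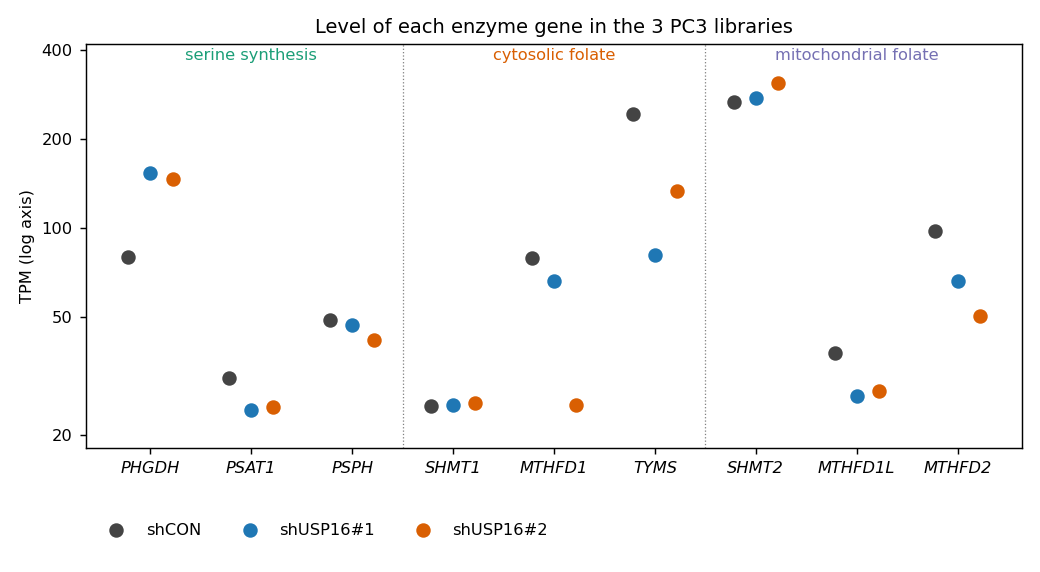
Level in TPM (log axis) of each of the 9 enzyme genes, grouped by arm, with 1 point per library (shCON grey, shUSP16#1 blue, shUSP16#2 orange) and no error because each condition has 1 library. PHGDH lies higher in both hairpin libraries, TYMS and MTHFD2 lie lower in both, MTHFD1 lies far lower under shUSP16#2 only, and SHMT1 stays between 24.9 and 25.6 TPM.

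The largest differences among the 9 were a higher PHGDH and a lower TYMS under both hairpins, and a lower MTHFD1 under shUSP16#2. At least 1.5-fold higher under both hairpins was 1 member, PHGDH, against 4.03% of all tested genes. At least 1.5-fold lower under both was 1 member, TYMS, against 20.8%. Of the other 7, 5 were lower under both hairpins by a smaller amount under at least 1 of them and 2 were higher by less than 1.5-fold. In all 6 members were lower under both hairpins by any amount, against 57.2% of tested genes, and 3 were higher under both, against 24.5%. These counts set the 9 genes as a list near the tested genes as a whole. Their median change was -0.25 (shUSP16#1) and -0.31 (shUSP16#2). Counted from the median of the tested genes, 4 members were below it and 4 above it under both hairpins, against 41.7% of tested genes each. No member was 2-fold changed in 1 direction under both hairpins, against 4.6% of tested genes lower and 1.14% higher.

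Taken by single hairpin, shUSP16#1 left TYMS at least 1.5-fold lower and PHGDH as much higher, against 23.2% and 8.72% of tested genes. With shUSP16#2, TYMS, MTHFD1 and MTHFD2 were at least 1.5-fold lower, against 38.5%, and PHGDH as much higher, against 7.32%. At 2-fold, 1 member was lower under each hairpin, TYMS with shUSP16#1 (5.79% of tested genes) and MTHFD1 with shUSP16#2 (19.5%), and 0 were higher (2.83% and 2.8%). After centring, TYMS no longer met 1.5-fold under both hairpins (11.2% of tested genes), and PHGDH met both 1.5-fold (9.74%) and 2-fold (2.5%), while 0 members were 2-fold lower under both (2.0%). With the GC trend removed, TYMS met 1.5-fold lower under both hairpins (12.5%) and PHGDH 1.5-fold higher (2.33%). In the direct comparison of shUSP16#2 with shUSP16#1, MTHFD1 was at least 1.5-fold lower (16.6%), TYMS was at least 1.5-fold higher (3.39%) and 0 members were 2-fold higher (1.61%).

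**Figure D2:**
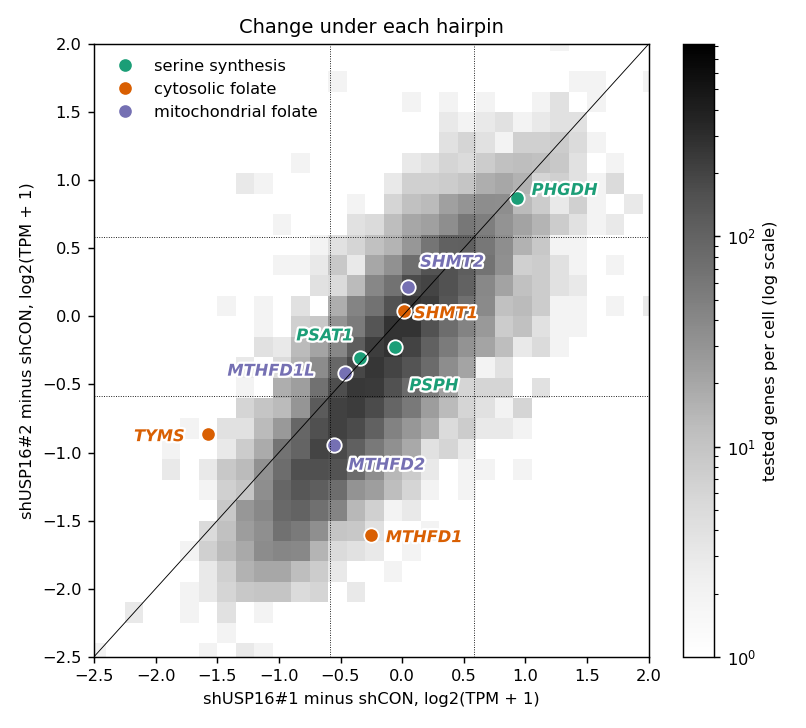
Change of each member on the log2(TPM + 1) scale under shUSP16#1 (x axis) and shUSP16#2 (y axis), coloured by arm, over the 13637 tested genes as grey cells shaded by their number (log scale, genes outside the axes not drawn). Dotted lines mark 1.5-fold and the solid line marks equal change. PHGDH lies at 0.93 and 0.87 near the line of equal change, TYMS lies left of it at -1.58 and -0.87, and MTHFD1 lies below it at -0.25 and -1.61.

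In the serine arm only the first step differed from shCON by 1.5-fold. PHGDH (ENSG00000092621, chromosome 1 from 119648411 to 119744226 of GRCh38 in GENCODE release 29, forward strand, 15 exons in the transcript with the longest coding sequence), which catalyses the committed step of the pathway, was at 79.95, 153 and 147 TPM. Both hairpin libraries were high and close to each other. The changes were 0.93 and 0.87 on the log2(TPM + 1) scale, at percentiles 96.6 and 96.4 of the tested genes. Centred they were 1.10 and 1.24, past 2-fold under both, and with the GC trend removed they were 0.76 and 0.69.

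PSAT1 (ENSG00000135069, chromosome 9 from 78297143 to 78330093, forward strand), the aminotransferase of the second step, was at 31.0, 24.3 and 24.9 TPM in shCON, shUSP16#1 and shUSP16#2. Its changes of -0.34 and -0.31 were near those of all tested genes, at percentiles 38.4 and 53.3, and they became -0.17 and 0.06 when centred and -0.09 and 0.08 with the GC trend removed. PSPH (ENSG00000146733, chromosome 7 from 56011051 to 56051604, reverse strand), the phosphatase of the last step, was at 48.9, 46.8 and 41.7 TPM. Its changes were -0.06 and -0.22, and 0.11 and 0.14 when centred. The sign for PSAT1 thus differed between the hairpins on both of these scales, of which the second keeps the general shift. With the GC trend and the general shift both taken off, PSAT1 was at 0.08 and 0.45, higher under both hairpins. On that scale PSPH was at 0.05 and 0.12, the direction of its centred values.
The genes of this arm thus moved apart in level. The ratio of PHGDH to PSAT1 in TPM was 2.58 in shCON and reached 6.3 with shUSP16#1 and 5.91 with shUSP16#2. The ratio of PSPH to PSAT1 was 1.58, 1.93 and 1.68. The summed TPM of the arm went from 160 in shCON to 224 and 214, with PHGDH higher and PSAT1 and PSPH lower in both sums.

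The cytosolic arm held the most negative changes of the 9 genes, in TYMS under shUSP16#1 and MTHFD1 under shUSP16#2, and also SHMT1, whose TPM differed least from shCON. TYMS (ENSG00000176890, chromosome 18 from 657604 to 673578, forward strand, 7 exons), thymidylate synthase, was at 243, 81.0 and 133 TPM. Both hairpin libraries were below shCON, and the one with less USP16, shUSP16#2, had more TYMS. The changes were -1.58 and -0.87, at percentiles 0.994 and 25.1 of the tested genes. Centred they were -1.40 and -0.50, so that the second no longer reached 1.5-fold, while removal of the GC trend gave -1.63 and -0.89. Between the hairpin libraries TYMS was 1.64 times as high under shUSP16#2 as under shUSP16#1, and a 1.5-fold excess in this comparison was found for 3.39% of tested genes.
TYMS shares its locus with 2 genes on the other strand. ENOSF1 overlaps 3255 bases of it and was at 62.8, 61.8 and 46.7 TPM. TYMSOS overlaps 737 bases around its start and was at 15.2, 13.1 and 15.8 TPM. Neither was as low as TYMS under shUSP16#1 relative to shCON. Whether strand was used in counting is not given in the sources used here, so reads of the overlaps cannot be told apart.

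MTHFD1 (ENSG00000100714, chromosome 14 from 64388031 to 64463457, forward strand, 27 exons), the trifunctional cytosolic enzyme that interconverts formyl-, methenyl- and methylene-tetrahydrofolate, was at 78.95, 66.1 and 25.2 TPM. Here the shUSP16#2 library alone was low. The change was -0.25 under shUSP16#1, at percentile 44.4 of the tested genes, and -1.61 under shUSP16#2, at percentile 3.76. Taken directly between the hairpin libraries, which leaves shCON out, the difference was -1.36, and it was -1.29 with the GC trend removed. A 2-fold lower level in this direct comparison was found for 3.58% of tested genes and for 1 of the 9 members. No match to the shUSP16#2 seed was found in the 3′ untranslated region of MTHFD1. Antisense genes within its span were at 2.46 TPM or less in each library.

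SHMT1 (ENSG00000176974, chromosome 17 from 18327860 to 18363563, reverse strand, 12 exons), the cytosolic serine hydroxymethyltransferase, was at 24.9, 25.2 and 25.6 TPM. The hairpin libraries were at 101% and 103% of shCON. Its changes of 0.02 and 0.04 were among the 3.35% of tested genes that lay within 0.1 of shCON under both hairpins. They became 0.19 and 0.40 when centred, and -0.16 and -0.14 with the GC trend removed. With the GC trend and the general shift both taken off they were 0.01 and 0.23. How steady SHMT1 was thus depended on the scale and the hairpin.

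In the mitochondrial arm the first enzyme was near or above shCON and the later ones were below it. SHMT2 (ENSG00000182199, chromosome 12 from 57229327 to 57234935, forward strand, 12 exons), the mitochondrial serine hydroxymethyltransferase, was at 267, 275 and 309 TPM. The shUSP16#2 library was the highest. The changes were 0.05 and 0.21, or 0.22 and 0.58 when centred, and -0.23 and -0.18 with the GC trend removed. With the GC trend and the general shift both taken off they were -0.06 and 0.18. Its transcript was the richest in GC of the 9, at 57.0%.

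MTHFD2 (ENSG00000065911, chromosome 2 from 74198562 to 74217565, forward strand, 8 exons), the dehydrogenase and cyclohydrolase that follows SHMT2, was at 97.7, 66.1 and 50.2 TPM. Both hairpin libraries were low, with shUSP16#2 the lowest. The changes were -0.56 and -0.95, and the second was past 1.5-fold, as for 38.5% of tested genes under shUSP16#2. Centred they were -0.38 and -0.58, and neither reached 1.5-fold. MTHFD2 was also the poorest in GC of the 9, at 41.4%. Among the 1329 tested genes with a GC content from 41.3% to 43.7% the median changes were -0.48 and -0.79, and MTHFD2 lay at percentiles 42.8 and 39.2 of them. With the GC trend removed its changes were -0.19 and -0.42, near the median of all tested genes.

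MTHFD1L (ENSG00000120254, chromosome 6 from 150865549 to 151101887, forward strand, 28 exons), the mitochondrial synthetase that releases formate, was at 37.7, 27.0 and 28.0 TPM. Both hairpin libraries were lower and close to each other. The changes were -0.47 and -0.42, and -0.30 and -0.05 when centred. With the GC trend removed they were -0.51 and -0.50.

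**Figure D3:**
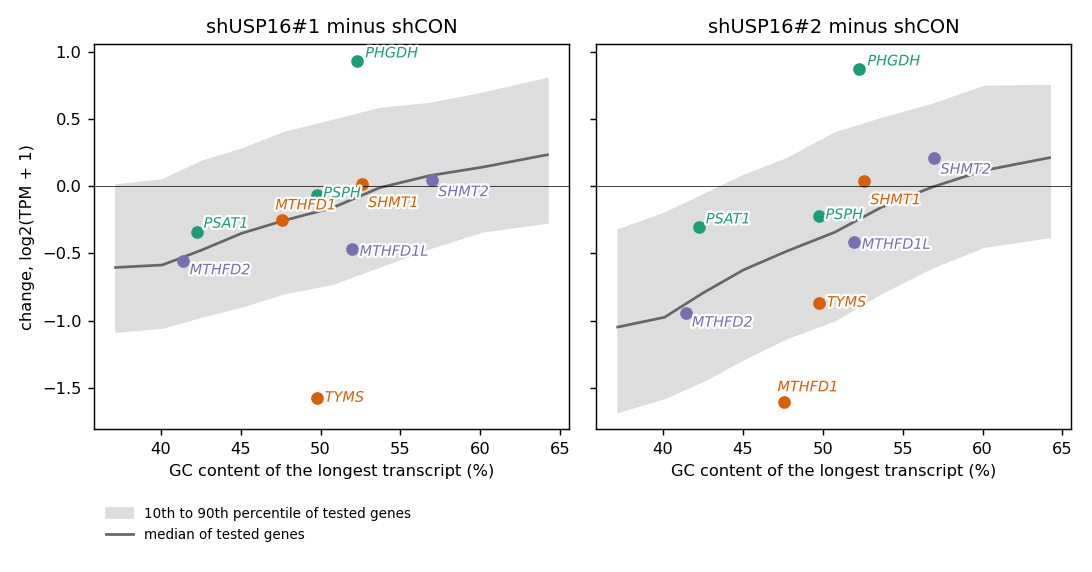
Change under each hairpin (y axis, log2(TPM + 1)) against the GC content of the longest transcript (x axis, percent), with the 9 members as points coloured by arm, the median of tested genes in 10 bins of GC content as a line and their 10th to 90th percentile as a band. PHGDH lies above the band in both panels, TYMS lies below it under shUSP16#1 and MTHFD1 below it under shUSP16#2, while MTHFD2 lies near the line in both.

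Set beside genes of like GC content, PHGDH lay at percentiles 95.8 and 96.1 of its bin of 1330 genes under shUSP16#1 and shUSP16#2. TYMS lay at percentiles 1.02 and 15 of its bin, and MTHFD1 at 50.1 and 3.12 of its own. The other 6 members lay between percentiles 23.6 and 80.9 of their bins.

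Compared as arms, the serine genes, the cytosolic folate genes and the mitochondrial folate genes had median changes of -0.06, -0.25 and -0.47 under shUSP16#1 and -0.22, -0.87 and -0.42 under shUSP16#2. The cytosolic and mitochondrial medians thus changed order between the hairpins. Each median is the value of 1 gene of 3, and within each arm the genes differed more from one another than the arms did. In summed TPM the cytosolic arm differed most, at 347 TPM in shCON against 172 and 184 TPM in the hairpin libraries, with TYMS holding the largest share in each. The mitochondrial sum was 402, 368 and 388 TPM, with SHMT2 higher where MTHFD2 and MTHFD1L were lower. The 9 genes summed to 909, 765 and 785 TPM.

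**Figure D4:**
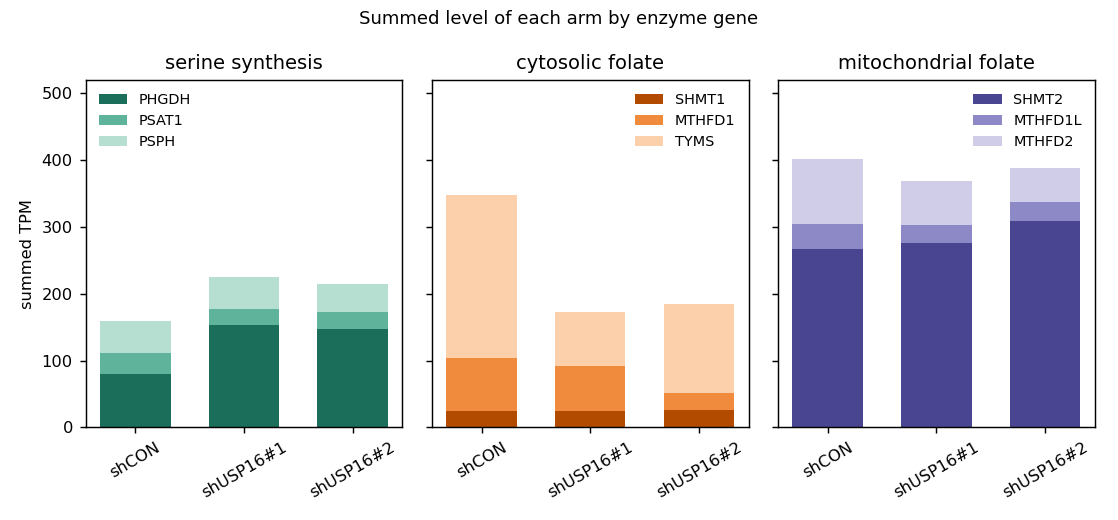
Summed TPM (y axis, from 0) of the 3 genes of each arm in each library, stacked by gene. The serine sum is higher in both hairpin libraries through PHGDH, the cytosolic sum is 347 in shCON and at most 184 under a hairpin, and the mitochondrial sum stays between 368 and 402.

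The paralogous pairs across the compartments behaved unlike each other. SHMT2 exceeded SHMT1 by 10.7, 10.9 and 12.1 times in the 3 libraries, so the mitochondrial form held from 91.5% to 92.4% of their sum. MTHFD2 and MTHFD1, which share the dehydrogenase and cyclohydrolase domains in the deposited annotation, stood at ratios of 1.24, 1.00 and 1.99. MTHFD1L and MTHFD1, which share the formate ligase domain, stood at 0.478, 0.409 and 1.11, so that the mitochondrial form was the higher one under shUSP16#2 only. The 3 mitochondrial genes over SHMT1 and MTHFD1 gave 3.87, 4.04 and 7.63. With geometric means in place of sums the ratio was 2.24, 1.93 and 2.98, so its direction under shUSP16#1 depended on the summary, and under shUSP16#2 it was higher by both. TYMS against SHMT2 was at 0.913, 0.294 and 0.43.

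Pseudogenes named after members were at or near 0, the highest being MTHFD1P1 at 0.04 TPM in 1 library. How reads shared between a member and such a copy were assigned is not given in the sources used here, which leaves the levels of PSAT1, MTHFD2 and TYMS, among others, uncertain by that share.

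For 6 of the 9 members many genes had nearly the same pair of changes. Among 8546 other protein-coding genes that averaged 5 TPM or more, from 131 to 284 lay within 0.1 of PSAT1, PSPH, SHMT1, SHMT2, MTHFD1L and MTHFD2 in the plane of both changes. For PHGDH there were 22, with TMC6 the nearest. For MTHFD1 there were 2, with NOL8 the nearest, at 9.78, 7.74 and 2.65 TPM. For TYMS there were 0. The likeness covers 3 libraries and says nothing of shared control.

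Genes around these enzymes were read from lists of the pathway. Of 7 tested other cytosolic folate genes, 2 were at least 1.5-fold lower under both hairpins, against 20.8% of all tested genes, and 0 were as much higher, against 4.03%. The count of lower genes was also 2 after centring (11.2% of tested genes) and after removal of the GC trend (12.5%). GGH, which trims folate polyglutamates, was at 74.8, 41.9 and 32.25 TPM. ATIC, of purine synthesis, was at 180, 151 and 142 TPM, and FPGS, which adds the glutamates, was at 51.0, 53.2 and 54.1 TPM. The changes of FPGS, 0.06 and 0.09, were -0.33 and -0.44 with the GC trend removed, against -0.18 and -0.37 for all tested genes.

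Of 10 tested mitochondrial one-carbon genes outside the arm, 4 were at least 1.5-fold lower under both hairpins, against 20.8% of all tested genes, and 0 were as much higher, against 4.03%. Of these 4, SFXN1 and SLC25A32 met 1.5-fold after centring (11.2% of tested genes), and SFXN1 alone did with the GC trend removed (12.5%). SFXN1, which carries serine into mitochondria, was at 33.75, 18.8 and 14.1 TPM, with changes of -0.81 and -1.20. SLC25A32, the mitochondrial folate carrier, was at 38.8, 20.3 and 12.9 TPM, with changes of -0.90 and -1.52. With the GC trend removed the changes were -0.61 and -0.90 for SFXN1 and -0.51 and -0.94 for SLC25A32, so that SLC25A32 no longer met 1.5-fold under shUSP16#1. GCSH, of the glycine cleavage system, was at 55.3, 30.4 and 32.5 TPM, and its changes became -0.45 and -0.24. The other was DLD, named after its values were seen, which serves that system and other complexes. It was at 54.7, 34.3 and 25.02 TPM, and its changes of -0.66 and -1.10 became -0.20 and -0.42. SFXN3, a relative of SFXN1, was at 17.3, 24.25 and 20.25 TPM and SARDH at 2.86, 3.09 and 4.26 TPM. The changes of SARDH, 0.08 and 0.45, were -0.34 and -0.16 with the GC trend removed, against -0.18 and -0.37 for all tested genes. That of SFXN3 under shUSP16#2 went from 0.21 to -0.07.
Of 4 tested carriers of the plasma membrane, 0 were 1.5-fold changed under both hairpins, against 20.8% of tested genes lower and 4.03% higher. With the GC trend removed, a scale that keeps the general shift, 2 were at least 1.5-fold lower, against 12.5%. The median changes of these carriers were -0.22 and -0.38 as deposited and -0.58 and -0.78 with the trend removed. Those of the 10 mitochondrial genes went from -0.33 and -0.74 to -0.19 and -0.29, so the order of both lists depended on the correction. The folate carriers SLC19A1 and SLC46A1 were at 34.65, 30.1 and 26.5 TPM and at 10.95, 7.18 and 8.09 TPM. With the GC trend removed their changes were -0.59 and -0.90 for SLC19A1 and -0.75 and -0.68 for SLC46A1. The serine and neutral amino acid carriers SLC1A5 and SLC1A4 were at 73.7, 62.4 and 56.3 TPM and at 4.02, 4.05 and 4.08 TPM.

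**Figure D5:**
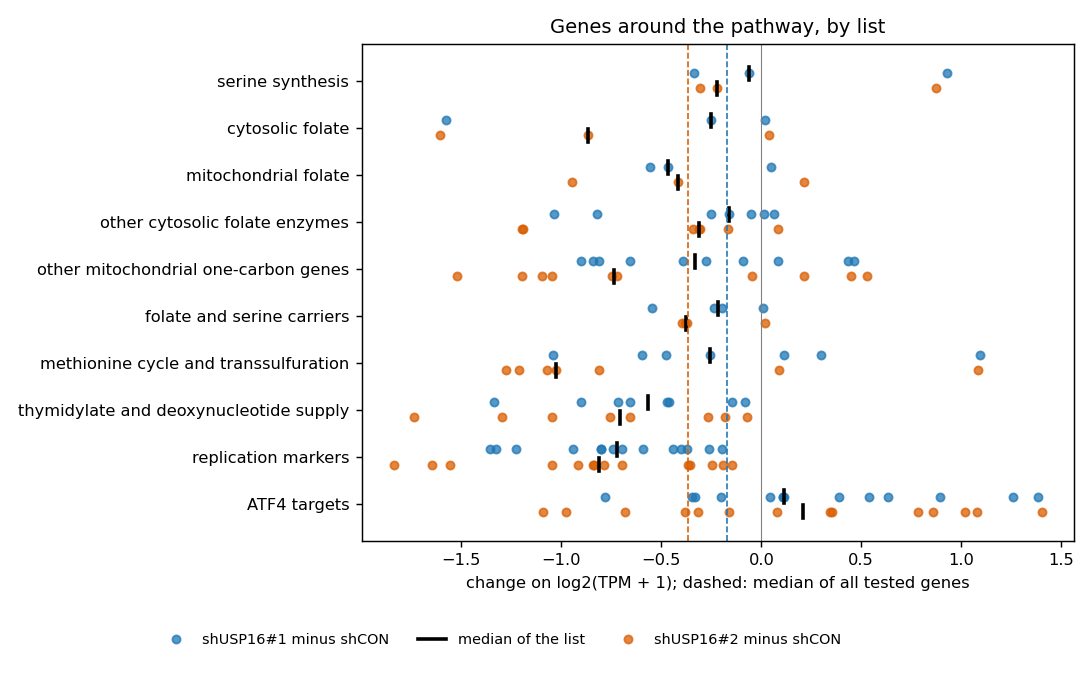
Changes of single genes (points, log2(TPM + 1), blue for shUSP16#1 and orange for shUSP16#2 against the same shCON library) in the 3 arms and 7 lists around them, with the median of each list as a black bar and the median of all tested genes as dashed lines at -0.17 and -0.37. Thymidylate and replication genes lie below 0 in full, and ATF4 targets lie on both sides with medians of 0.11 and 0.21.

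As deposited, all 8 tested genes of thymidylate and deoxynucleotide supply were lower under both hairpins, and 4 were so by at least 1.5-fold, against the 57.2% and 20.8% of all tested genes. After centring 2 genes of the list met 1.5-fold, against 11.2%, and with the GC trend removed 3 did, against 12.5%. RRM2, the S-phase subunit of ribonucleotide reductase, was at 163, 63.75 and 65.6 TPM. RRM1, its partner, was at 61.1, 32.3 and 29.1 TPM, and RRM2B was at 7.56, 4.21 and 1.57 TPM. RRM2 and RRM1 stayed past 1.5-fold with the GC trend removed, and RRM2B did not under shUSP16#1, at -0.27. All 14 replication markers were lower under both hairpins, 9 of them by at least 1.5-fold, and relative to the median of all genes 9 were below it under both, against 41.7%. After centring 4 met 1.5-fold, and with the GC trend removed 9 did. The list was led by CCNE2, TOP2A and MKI67. MKI67, a marker of cycling cells, was at 29.6, 12.1 and 8.78 TPM. Whether fewer cells were in S phase or each held less of these messages cannot be told apart in bulk RNA, and the part of this in the level of TYMS was not tested. Between the hairpin libraries, 7 of the 14 markers were higher under shUSP16#2, as TYMS was, and 7 were lower. The share of all tested genes higher under shUSP16#2 was not counted. In this comparison PHGDH, at -0.06, lay at percentile 67.2 of the tested genes and SHMT1, at 0.02, at percentile 75.7. Most tested genes were therefore lower under shUSP16#2 than under shUSP16#1.

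PHGDH was higher among ATF4 targets that did not move as one. Of 14 tested ATF4 targets, 4 were at least 1.5-fold higher under both hairpins, against 4.03% of all tested genes. As much lower was 1, against 20.8%. The list had median changes of 0.11 and 0.21. With the GC trend removed these medians were 0.02 and -0.19, against -0.18 and -0.37 for all tested genes. After centring 5 were at least 1.5-fold higher (9.74%) and 1 as much lower (11.2%). With the GC trend removed the counts were 3 (2.33%) and 0 (12.5%). NUPR1 was at 12.8, 34.9 and 35.4 TPM, DDIT4 at 41.9, 102 and 89.6 TPM and CHAC1, which degrades glutathione, at 8.58, 16.8 and 18.4 TPM. With the GC trend removed CHAC1, at 0.52 and 0.49, was under 1.5-fold, while NUPR1 and DDIT4 were past it. The other gene past it was ASNS, named after its values were seen, at 28.2, 44.4 and 51.9 TPM. SLC7A11, the cystine carrier, was at 3.28, 1.49 and 1.01 TPM, and CEBPG and STC2 were also lower. ATF4 itself was at 340, 369 and 351 TPM, with changes of 0.12 and 0.05. With the GC trend removed they were -0.16 and -0.35, near the median of all tested genes on that scale. The serine and folate genes PSAT1, PSPH, MTHFD1L and MTHFD2, several of which are known as ATF4 targets too, lay below shCON in both hairpin libraries, PHGDH and SHMT2 above it.

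MYC was at 238, 209 and 173 TPM, and NFE2L2, which encodes NRF2, was at 30.01, 16.8 and 11.04 TPM. Of the 9 members 3 belong to the c-Myc gene signature that the study defined, namely PSAT1, PSPH and MTHFD1L. The share of tested genes in that signature was not counted, so no excess can be read from this. These 3 members had changes from -0.47 to -0.06 under shUSP16#1 and from -0.42 to -0.22 under shUSP16#2. The medians of all tested genes were -0.17 and -0.37. The members that differed most, PHGDH, TYMS and MTHFD1, are outside that signature, and the part of c-Myc in any of these changes was not tested.

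In the methionine cycle and transsulfuration, which draw on folate carbon and on serine, 7 genes were tested. Of these, 2 were at least 1.5-fold lower under both hairpins, against 20.8% of all tested genes, and 1 was as much higher, against 4.03%. After centring the counts were 1 (MTR, against 11.2%) and 1 (CBS, against 9.74%). With the GC trend removed they were the same, against 12.5% and 2.33%. MTR, the methionine synthase that takes a methyl group from folate, was at 4.17, 1.51 and 1.54 TPM, and its reductase MTRR was at 17.45, 11.2 and 6.62 TPM, with changes of -0.27 and -0.83 once the GC trend was removed. MAT2B, a subunit of methionine adenosyltransferase, was at 29.9, 21.1 and 12.3 TPM. CBS, which joins serine to homocysteine, was at 7.43, 17.02 and 16.9 TPM, 2-fold higher under both hairpins, and with the GC trend removed its changes were 0.83 and 0.70. AHCY was at 354, 382 and 377 TPM, with changes of 0.11 and 0.09. With the GC trend removed they were -0.17 and -0.32, near the median of all tested genes on that scale. CBS and PHGDH were thus both higher in the same libraries, with both hairpins alike for each.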

How the data were processed

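Total RNA from 3 libraries of PC3 cells was prepared with the Illumina TruSeq RNA kit and sequenced by Majorbio. The deposited table gives TPM to 2 decimals, which the authors had made on the Majorbio Cloud Platform. The submitters' processing notes name CASAVA, HISAT2 and hg19, and the quantification tool and annotation are not given in the sources used here. Another 3 columns repeat these values and were not used. Of entries sharing a name the one with the highest mean was kept (1211 left out). Coordinates, gene types and GC content came from GENCODE release 29 (GRCh38), so coordinates are not those of hg19.

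Changes are log2(TPM + 1) under a hairpin minus shCON, for names with a mean of at least 1 TPM, with calls at 1.5-fold and 2-fold. The log scale with a pseudocount of 1 understates changes of low genes. The GC trend was removed with medians of 50 bins, and the overall median was added back. Counts of the lists after centring and GC removal were added after seeing the data. Of the tested genes 13296 had a GC content, taken from the longest transcript. Promoters came from RefSeq (GRCh38.p14) and hairpins from the study's supplement. The members and lists were chosen with earlier results of these data known. Named were all members and, from each list, the genes 2-fold changed under both hairpins or with the largest smaller change, up to 3 per direction, besides SFXN1, SLC25A32, ATF4, MYC and overlapping loci. For likeness the nearest gene in the plane of both changes was found. Some genes that these rules name are not reported here. NFE2L2 and CBS came by their lists. Procedures were tested on simulated data. Python 3.11.15, numpy 2.4.6, pandas 2.3.3 and matplotlib 3.10.9 were used.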

Additional observations from a re-analysis of the deposited data

How the results depend on the processing

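No paired analysis was possible because every condition was a single library, so none could be left out. A value was taken as moved when it differed by more than the standard deviation of the values of both hairpins. The median over the 9 members of the mean change was -0.32, and it was -0.057 when centred, -0.20 after removing the GC trend and -0.25 with shUSP16#1 alone. For the serine arm the median went from -0.14 to 0.12 centred and 0.015 with the GC trend removed. For the mitochondrial arm it went from -0.44 to -0.18 centred and -0.30 with the GC trend removed, and for the cytosolic arm from -0.93 to -0.25 with shUSP16#1 alone. A pseudocount of 0.1 and rescaling within protein-coding genes moved none of these medians beyond that spread. The ratio of mitochondrial to cytosolic levels in shCON, shUSP16#1 and shUSP16#2 was 1.16, 2.14 and 2.11 with TYMS in the cytosolic sum and 2.24, 1.93 and 2.98 with geometric means, in place of 3.87, 4.04 and 7.63.

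For single members 54 alternatives were computed, 13 moved and 4 changed sign, and each of these 4 had a mean change under 1.5-fold. Genes lower by 2-fold or more with both hairpins numbered 627, or 1095 with a pseudocount of 0.1, 273 centred and 273 with the GC trend removed. Genes as much higher numbered 155, or 287 with a pseudocount of 0.1, 341 centred, 101 with the GC trend removed, 96 with a minimum of 5 TPM and 84 among protein-coding genes. The cause of these shifts was not tested. Depth is unknown, so it sets no stated limit.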

Other observations

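Several one-carbon genes that are best known from liver and kidney were near 0 in these cells. MAT1A and BHMT were listed at 0 in the 3 libraries, GNMT was at 0.06, 0.05 and 0.19 TPM in shCON, shUSP16#1 and shUSP16#2, and FTCD was at 0.24, 0.19 and 0.09 TPM. The formyltetrahydrofolate dehydrogenases ALDH1L1 and ALDH1L2 were at 0.21 TPM or less in each library. In the glycine cleavage system AMT was at 0.42, 0.41 and 0.40 TPM and GLDC at 1.95, 1.77 and 3.25 TPM, while GCSH and DLD were at 25.0 TPM or more. These genes were named after their values were seen.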
